A study of Mus musculus with 5 samples.

Results

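Solute carriers are membrane proteins that move ions, amino acids, organic acids, sugars and metals across cell membranes. The carriers described here are the mouse genes whose symbols place them in the ion and amino acid families Slc4, Slc5, Slc6, Slc7, Slc9, Slc12, Slc13, Slc22, Slc30, Slc38 and Slc39. The rule uses the symbol alone and no measured value, and 138 of the 78334 genes listed in all 5 count matrices met it. Slc22 had 25 members, Slc6 19, Slc7 15, Slc39 14, Slc38 and Slc5 11 each, Slc4 and Slc30 10 each, Slc9 and Slc12 9 each and Slc13 5. Of the 138 carriers, 114 had at least 1 count in every library and 0 were without a count in all of them.

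The mice came from a study of memory in the dentate gyrus, the input region of the hippocampus, that used contextual fear conditioning (CFC), in which a place is paired with a foot shock. In part 1, collagenase-dissociated cells were counted from 2 wild-type groups, CFC-14d, which had CFC training, and Random-14d, which had foot shocks at random, both sampled at day 14. In part 2, nuclei were isolated from frozen tissue of 3 groups: KO-CFC, which by its title carries a Csf2rb2 knockout and was sampled 14 days after training, WT-CFC, wild type with the same training and day, and WT-naive, wild type without training. Each group was 10 mice and 1 library, which leaves differences untested, and the 95% intervals below reflect counting error alone, without the spread between mice or libraries. The sources used here do not state age, sex, strain or the cells in which the gene was deleted.

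CFC-14d had 32827 barcodes with 126937815 unique molecular identifiers (UMIs, tags that count RNA molecules once), and Random-14d had 30515 with 122920565. In part 2 there were 38045642 UMIs in 8395 barcodes for KO-CFC, 68519389 in 13213 for WT-CFC and 64716053 in 10968 for WT-naive. The share of UMIs that fell to carriers was 0.224% for CFC-14d and 0.197% for Random-14d, and 0.338% in KO-CFC, 0.340% in WT-CFC and 0.312% in WT-naive. In each part at most 282 barcodes were shared by a pair of libraries. The library labelled KO-CFC still held Csf2rb2 RNA, given here as CPM (counts scaled to a total of 1e6 UMIs). Over the whole library it stood at 9.67 CPM (95% interval 8.71 to 10.7), against 17.6 in WT-CFC and 14.4 in WT-naive. In mossy cells it stood at 88.1 CPM (75.2 to 102.5), against 113 in WT-CFC and 90.7 in WT-naive. Csf2rb2 was itself among the markers used to name mossy cells. The genotype tag of the KO-CFC library names another gene, Csf2rb3. This library also held 641 CPM of Xist, against 1.81 in WT-CFC and 2.94 in WT-naive. Genotype, sex and library therefore cannot be told apart in any comparison with it.

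Barcodes were clustered within each part with the carriers left out of the genes used, so that no cluster was defined by them, and clusters were named for the cell type whose markers they carried. A name such as choroid plexus or endothelium below stands for cells like that type. The largest groups in part 1 were microglia with 9047 cells in CFC-14d and 10503 in Random-14d, and choroid plexus epithelium with 10467 and 5229. No group of mature neurons was named there. Part 2 was led by neurons, with 2426 nuclei in KO-CFC, 4579 in WT-CFC and 5261 in WT-naive. Neurons of the neighbouring fields CA3 or CA2 made up 82 of these in KO-CFC, 2009 in WT-CFC and 2619 in WT-naive, and granule neurons, the principal cells of the dentate gyrus, 1717, 1373 and 1185. A further cluster of 1216 KO-CFC, 6 WT-CFC and 4 WT-naive nuclei scored highest for CA3 or CA2 neurons but carried 0 of the markers at 2-fold, and it stayed unnamed, so these counts depend on the naming. The tissue sampled was thus not dentate gyrus alone, and the makeup of the named neurons differed between libraries.

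As background, choroid plexus epithelium secretes cerebrospinal fluid with bicarbonate and chloride carriers of the Slc4 and Slc12 families, and brain endothelium feeds the brain with amino acids through Slc7, Slc38 and Slc6 members. Astrocytes and neurons clear or recycle transmitters with Slc6 carriers and set their chloride and pH with Slc12, Slc4 and Slc9 members. Slc30 proteins move zinc out of the cytosol and Slc39 proteins move it in, and Slc22 proteins carry organic ions.

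Some carriers are known to respond to metals, oxidants or amino acid shortage, and promoters of 4 carriers whose levels set cell types or libraries apart in the results are printed here. They are Slc30a1, Slc38a11, Slc7a11 and Slc38a2, taken from RefSeq on the mouse build GRCm38.p6, which is not the build named for the count matrices, and each ends just before the start of the gene. Capitals mark the cores of the metal response element (TGCACNC or TGCGCNC), the antioxidant response element (TGACNNNGC) and the amino acid response element (TGATGNAAN), searched on both strands, with N for any base.
Slc30a1, chr1:191906531-191906780, plus strand: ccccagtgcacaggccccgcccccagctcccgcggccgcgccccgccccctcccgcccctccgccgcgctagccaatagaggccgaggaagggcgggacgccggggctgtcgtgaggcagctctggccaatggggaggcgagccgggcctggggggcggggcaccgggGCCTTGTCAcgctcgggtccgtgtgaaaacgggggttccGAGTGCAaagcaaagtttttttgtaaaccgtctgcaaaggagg
Slc38a11, chr2:65364027-65364276, minus strand: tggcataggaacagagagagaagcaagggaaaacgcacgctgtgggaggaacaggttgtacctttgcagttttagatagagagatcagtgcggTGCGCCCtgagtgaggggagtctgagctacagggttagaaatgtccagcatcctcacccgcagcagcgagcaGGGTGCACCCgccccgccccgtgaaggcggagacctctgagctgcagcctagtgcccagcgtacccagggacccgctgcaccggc
Slc7a11, chr3:50443614-50443863, minus strand: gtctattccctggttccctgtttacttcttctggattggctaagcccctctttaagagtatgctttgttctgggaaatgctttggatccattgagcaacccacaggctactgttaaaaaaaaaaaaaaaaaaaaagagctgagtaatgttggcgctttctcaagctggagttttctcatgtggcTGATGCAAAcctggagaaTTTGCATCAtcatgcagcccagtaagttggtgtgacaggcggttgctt
Slc38a2, chr15:96699729-96699978, minus strand: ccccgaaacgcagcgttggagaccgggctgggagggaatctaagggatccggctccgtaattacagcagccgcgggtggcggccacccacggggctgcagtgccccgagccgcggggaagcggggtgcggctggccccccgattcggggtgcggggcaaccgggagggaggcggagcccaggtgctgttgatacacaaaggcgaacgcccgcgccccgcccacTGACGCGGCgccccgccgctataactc
The Slc30a1 window held 1 metal and 1 antioxidant core, the Slc38a11 window 3 metal cores of which a pair overlap on opposite strands, the Slc7a11 window 2 amino acid cores and the Slc38a2 window 1 antioxidant core. RefSeq promoters matched 103 of the carriers. Metal cores stood in 23.02% of their 139 promoters, against 21.41% of all 32851 promoters of that length, antioxidant cores in 12.23% against 10.16%, and amino acid cores in 3.597% against 3.437%. Carrier promoters thus held these letters about as often as promoters at large. A match is a description of the letters, not a site shown to be used.

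The first question was which carriers mark which cell type. A carrier was said to mark a group when its CPM there was at least 2-fold that of every other group in each library, with at least 20 counts. In the cells of part 1, 86 carriers reached 20 counts in some group in both libraries and 26 of them marked one, which is 30.2%, beside 12% of all 18971 genes counted the same way. Endothelium had 7 of the 26, astrocytes and fibroblasts 4 each, microglia and choroid plexus 3 each, oligodendrocytes 2 and mural cells, erythroid cells and lymphocytes 1 each. Of the carriers with enough counts there, 0 of 4 marked neutrophils, 0 of 32 other myeloid cells, 0 of 1 platelets and 0 of 28 the progenitors and neuroblasts. These groups were marked by 5.83%, 0.929%, 1.03% and 2.6% of all genes, and the carriers in neutrophils and platelets were too few to compare.

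**Figure D1:**
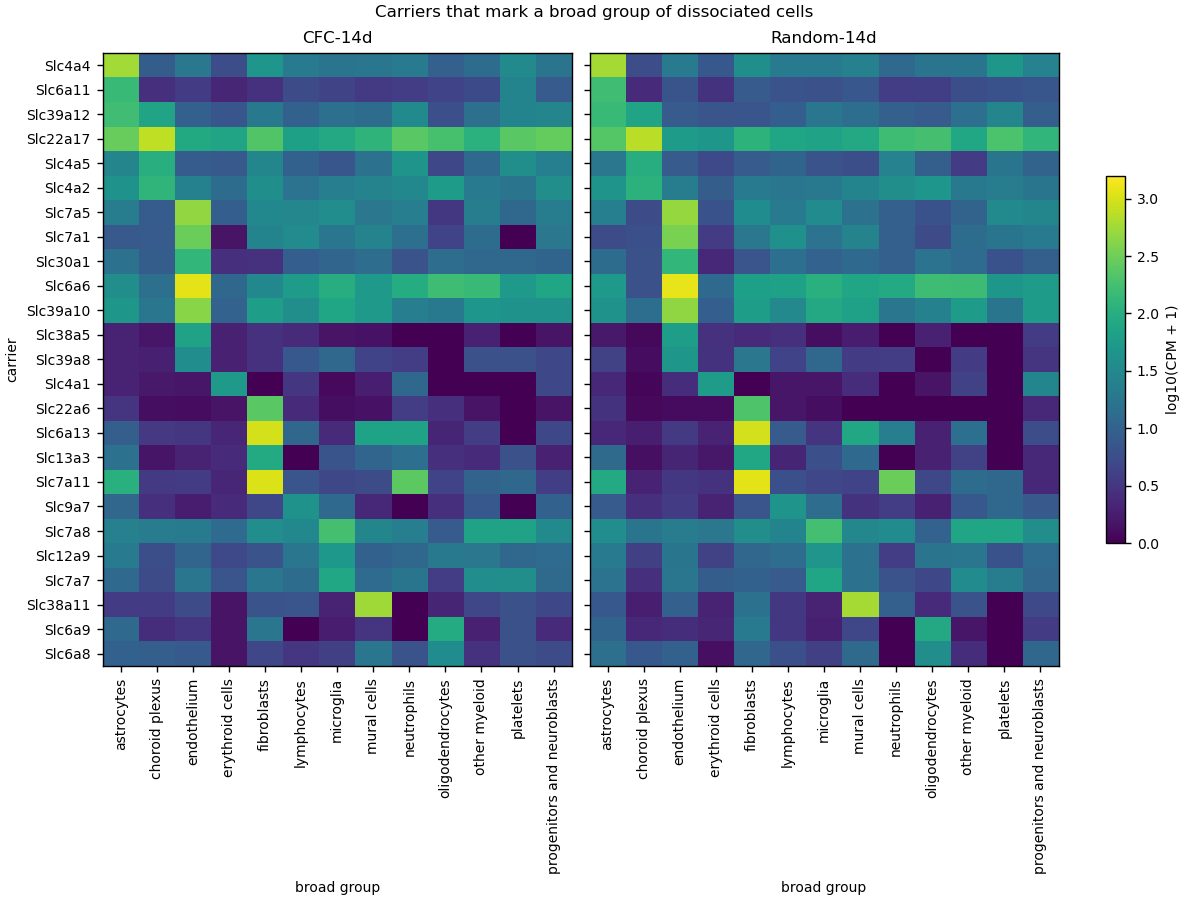
Carriers that mark a broad group in the cells of part 1. Rows are carriers, columns are broad groups, the left panel is CFC-14d and the right panel Random-14d, and colour gives log10(CPM + 1). The brightest blocks stand at the same places in both panels, for example Slc6a6 in endothelium at 1187 CPM in CFC-14d and 1199 CPM in Random-14d.

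Endothelium was marked by carriers of amino acids and of zinc. Slc6a6, the taurine carrier, stood at 1187 CPM (1152 to 1223) in CFC-14d and 1199 CPM (1167 to 1232) in Random-14d, and its next group, oligodendrocytes, at 158 and 162 CPM. Slc7a5, which carries large neutral amino acids and the drug L-DOPA across the blood-brain barrier, stood at 481 and 487 CPM with no other group above 36.2 CPM. Slc7a1, a carrier of arginine and lysine, had 301 and 355 CPM, and the zinc importer Slc39a10 had 432 and 472 CPM. These 4 levels were at least 2.50 log2 units above the next group in both libraries. Slc30a1, a zinc exporter of the cell surface whose promoter is printed above, had 129.9 and 130.8 CPM, and its next group was at the floor of 3 counts in platelets. The glutamine carrier Slc38a5 had 69.1 and 58.8 CPM and the zinc and manganese importer Slc39a8 had 36.6 and 48.5 CPM, a mark that was lost under 2 of 11 alternative settings. Zinc importers and a zinc exporter were therefore high in the same cells. The 7 carriers were 13.2% of the 53 carriers with enough counts in endothelium, beside 3.13% of all genes.

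A list of 9 endothelial carriers by textbook gave 7 that were highest in endothelium in both libraries, and 6 that marked it. Like the other textbook lists below, it was chosen with earlier results of these data known, so its counts are a description. The share of all genes that were highest in each group was not counted. Slc38a3, a glutamine carrier shared with astrocytes, was highest there at 97.2 and 92.4 CPM, against 51.2 and 46.4 CPM in astrocytes. The organic anion carrier Slc22a8 did not follow the list: it stood at 199.8 and 186 CPM in fibroblasts, 183 and 173.5 CPM in endothelium and 166 and 184 CPM in pericytes, with intervals that overlapped. The creatine carrier Slc6a8 had 7.10 and 8.96 CPM in endothelium and marked oligodendrocytes instead, at 34.7 and 36.9 CPM. That mark held under only 5 of 11 alternative settings, with a lowest value of 0.34 log2 units over the next group.

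Fibroblasts, the cells of the meninges and of the choroid plexus stroma, were marked by carriers of cystine, GABA and organic anions. Slc7a11, which takes up cystine in exchange for glutamate, reached 1075 CPM (988 to 1167) in CFC-14d and 1187 CPM (1107 to 1273) in Random-14d. The next group was neutrophils at 246 and 302 CPM, and astrocytes held 106.6 and 89.6 CPM. Slc6a13, a carrier of GABA and taurine, had 988 and 961 CPM in fibroblasts and 71.1 and 81.2 CPM in mural cells. Slc22a6, an organic anion carrier, had 239 and 210.0 CPM, and the dicarboxylate carrier Slc13a3 had 88.6 and 82.8 CPM, with the platelet floor as the next level for both. The fibroblasts were only 217 cells in CFC-14d and 250 in Random-14d, and 4 of 20 carriers with enough counts marked them, beside 3.41% of all genes. Of the 6 fibroblast carriers of the textbook list, 5 were highest there in both libraries. The sulfate carrier Slc13a4 had 177 and 126 CPM in fibroblasts and 99.1 and 91.7 CPM in choroid plexus. The sodium-driven bicarbonate carrier Slc4a10 was the exception, with 124 and 78.4 CPM in fibroblasts and 217 and 202 CPM in choroid plexus. These 2 carriers had alike levels over the 13 broad groups, and of all carriers Slc4a10 was the most like Slc13a4 (Pearson r of log2(CPM + 1) 0.957, a description, since the groups share libraries).

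Choroid plexus epithelium was marked by 3 of 77 carriers, beside 0.548% of all genes. Slc22a17, a receptor for the iron-binding protein lipocalin-2, stood at 772.5 CPM (766 to 779) in CFC-14d and 730.1 CPM (723 to 737) in Random-14d. Astrocytes came next at 285 and 224 CPM. The anion exchanger Slc4a2 had 122 and 114 CPM and the electrogenic sodium bicarbonate carrier Slc4a5 had 104 and 97.4 CPM. Both bicarbonate carriers were a little over 2-fold above their next groups, by at least 1.13 and 1.24 log2 units. All 3 marks depended on the settings: Slc22a17 kept 2-fold under 7 of 11 alternatives (lowest 0.37 log2 units over the next group), Slc4a2 under 6 (lowest 0.39) and Slc4a5 under 8 (lowest 0.48). Each of the 3 was lowest with the barcode limit at 1000 UMIs. Over the 13 groups the levels most like those of Slc22a17 were those of Slc4a5 (r 0.893) and Slc4a2 (r 0.868).

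Of the 9 choroid plexus carriers of the textbook list, 4 were highest in choroid plexus and 2 marked it. Slc4a10 was highest there but not 2-fold above fibroblasts, and the potassium chloride carrier Slc12a4, at 37.1 and 37.9 CPM, was level with its next group, 0.00097 log2 units above it in the library with the smaller gap. Slc12a2, which loads cells with sodium, potassium and chloride, had 175 and 155 CPM in choroid plexus, below the 242 and 261 CPM in mural cells and the 513 and 473 CPM in oligodendrocytes. Slc4a7, a sodium bicarbonate carrier, had 9.90 and 6.64 CPM in choroid plexus and 56.8 and 58.3 CPM in microglia. Transthyretin (Ttr), a secreted product of choroid plexus, took 326700 and 379600 CPM there and 18500 to 103400 CPM in the other groups. A choroid plexus carrier at a low level in another group cannot be told apart from free RNA in these cells.

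Mural cells were marked by Slc38a11 alone of 48 carriers, beside 2.11% of all genes. Its level was 546 CPM (517 to 576) in CFC-14d and 582 CPM (553 to 612) in Random-14d, and every other group was below the floor of 3 counts in platelets, which is 15.9 and 16.3 CPM. The gap of at least 5.11 log2 units is measured to that floor. Among the other groups Slc38a11 reached at most 14.8 CPM, in fibroblasts of Random-14d, and choroid plexus held 2.65 and 0.86 CPM. Pericytes, which wrap capillaries, held 581 and 599 CPM of Slc38a11, and smooth muscle cells 433.5 and 430.8 CPM. The manganese exporter Slc30a10 split these cell types, at 252 and 246 CPM in pericytes and 15.7 and 7.30 CPM in smooth muscle. The anion exchanger Slc4a3 ran the other way, with 14.3 and 8.93 CPM in pericytes and 157 and 189.9 CPM in smooth muscle. In part 2, where mural nuclei numbered 23 in KO-CFC, 53 in WT-CFC and 26 in WT-naive, too few for the rule, Slc38a11 had 604, 946 and 826.5 CPM in those libraries.

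Astrocytes were marked in part 1 by 4 of 41 carriers, beside 2.35% of all genes. The electrogenic sodium bicarbonate carrier Slc4a4 had 565 CPM (531 to 599) in CFC-14d and 588 CPM (550.1 to 628) in Random-14d, and the next groups were below 50 CPM. The GABA carrier Slc6a11 had 144 and 164 CPM. The zinc importer Slc39a12 had 164 and 146.5 CPM, just under 2-fold above the next group with each barcode weighted equally (0.99 log2 units). Slc7a10, which carries D-serine and other small amino acids, was highest in astrocytes at 186 and 184 CPM, short of 2-fold above the next group. These astrocytes also held 88870 and 84190 CPM of Ttr at a median of only 744.5 and 782 UMIs, and the part of choroid plexus RNA in their levels was not tested.

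Microglia were marked by 3 of 69 carriers, beside 0.761% of all genes. Slc7a8, a carrier of neutral amino acids, had 178.5 and 177 CPM, Slc7a7, which exchanges cationic for neutral amino acids, had 81.2 and 74.8 CPM, and Slc12a9 had 49.3 and 45.4 CPM. Of 11 alternative settings, the mark was kept under 10 for Slc7a8, 10 for Slc7a7 and 7 for Slc12a9. The endosomal sodium-proton exchanger Slc9a9 had 274 and 262.5 CPM in microglia but stood higher in the other myeloid cells, at 404 and 415 CPM. Oligodendrocytes were marked by the glycine carrier Slc6a9 at 92.8 and 85.0 CPM and by Slc6a8. That is 6.9% of 29 carriers, the same share as the 6.9% of all genes. Slc4a1, the chloride-bicarbonate exchanger of red cells, marked erythroid cells at 51.3 and 58.4 CPM, beside 0.382% of all genes. The endosomal and Golgi exchanger Slc9a7 marked lymphocytes, beside 3.07% of all genes, and the signal lay in B cells at 91.0 and 87.5 CPM against 13.8 and 17.4 CPM in T or NK cells. It kept the mark under 9 of 11 alternatives.

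The nuclei of part 2 repeated some of these marks and added others. There 14 of 81 carriers marked 1 of 6 broad groups in all 3 libraries, which is 17.3%, beside 8.18% of all 19458 genes. Astrocytes had 6, oligodendrocytes 4, microglia 3 and neurons 1. Of the carriers with enough counts there, 0 of 19 marked oligodendrocyte precursors and 0 of 22 the progenitors and neuroblasts, beside 4.74% and 1.83% of all genes.

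**Figure D2:**
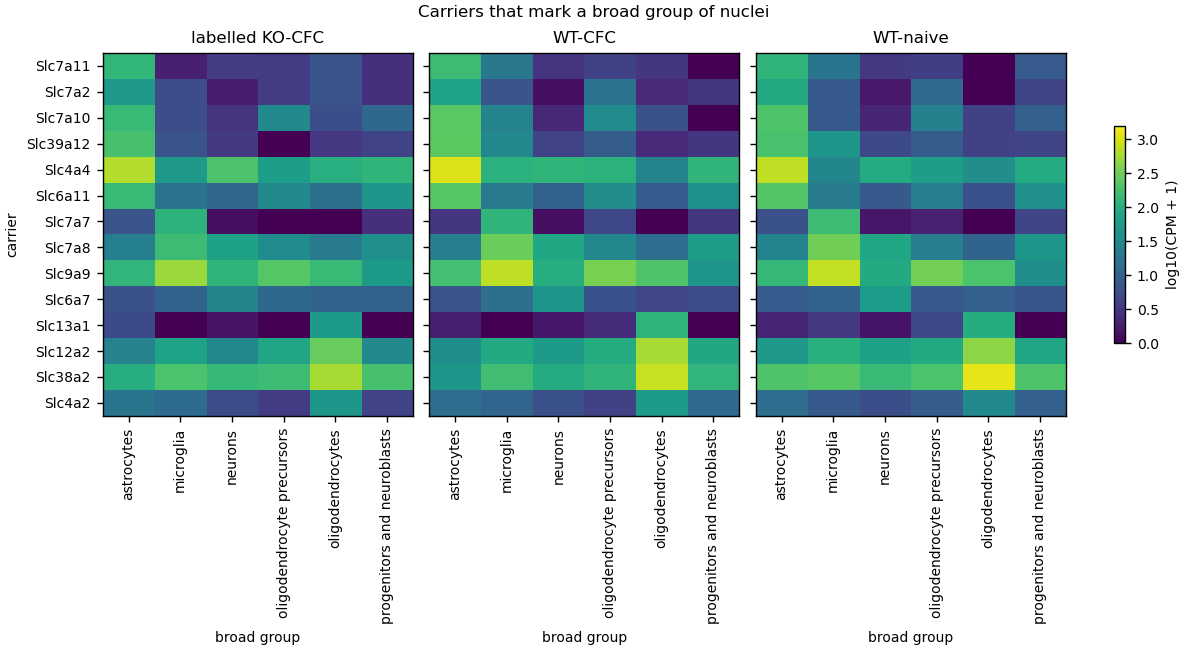
Carriers that mark a broad group in the nuclei of part 2. Rows are the 14 carriers, columns are the 6 broad groups, the panels are KO-CFC, WT-CFC and WT-naive, and colour gives log10(CPM + 1). Slc38a2 stands out in oligodendrocytes at 597, 844 and 1219 CPM in KO-CFC, WT-CFC and WT-naive.

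Astrocyte nuclei were marked by 6 of 51 carriers, beside 3.14% of all genes. Slc4a4 had 676 CPM in KO-CFC, 1081 in WT-CFC and 773 in WT-naive, Slc39a12 had 185, 246 and 189 CPM, and Slc6a11 had 143, 233 and 222 CPM. These 3 also marked astrocytes in the dissociated cells. Slc7a11 had 129.8 CPM (109.9 to 152) in KO-CFC, 153 in WT-CFC and 123 in WT-naive, and the other broad groups of at least 50 nuclei reached at most 18.2 CPM. In part 1 its level in astrocytes was similar but fibroblasts, which formed no group in part 2, stood above it. Slc7a10 had 144, 241 and 205 CPM and the cationic amino acid carrier Slc7a2 had 52.5, 71.2 and 86.8 CPM. Of the 8 astrocyte carriers of the textbook list, 7 were highest in astrocytes in every library, and the glycine carrier Slc6a9 had too few counts in astrocytes and was highest in oligodendrocytes. Over the 6 groups the carrier most like Slc39a12 was Slc7a11 (r 0.983).

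Oligodendrocyte nuclei were marked by 4 of 30 carriers, 13.3%, beside 5.15% of all genes. Slc38a2, a carrier of small neutral amino acids that other cells induce in amino acid shortage and osmotic stress, had 597 CPM (546 to 652) in KO-CFC, 844 (796 to 895) for WT-CFC and 1219 (1149 to 1293) for WT-naive, and microglia came next at 196, 164 and 232 CPM. Slc12a2 had 284, 601 and 439.7 CPM, the sulfate carrier Slc13a1 had 55.1, 120.5 and 94.2 CPM and Slc4a2 had 49.1, 53.9 and 32.5 CPM, under 2-fold above the next group when doublets were kept (0.64 log2 units). Over the 6 groups the carrier most like Slc12a2 was Slc38a2 (r 0.981). In the cells of part 1 both were high in oligodendrocytes too, Slc12a2 at 513 and 473 CPM and Slc38a2 at 369 and 379 CPM, but Slc38a2 reached 424 and 299 CPM in fibroblasts and Slc12a2 was within 2-fold of mural cells in Random-14d.

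Microglial nuclei were marked by 3 of 24 carriers, 12.5%, close to the 13% of all genes. Slc9a9 had 529 CPM in KO-CFC, 776 in WT-CFC and 794 in WT-naive, Slc7a8 had 155, 298 and 318 CPM and Slc7a7 had 115, 124 and 155 CPM. The mark was lost under 2 of 10 alternatives for Slc9a9 (lowest 0.41) and 3 of 10 for Slc7a8 (lowest 0.77). All 4 microglial carriers of the textbook list were highest in microglia in every library. Slc38a6, at 98.4, 48.6 and 47.8 CPM, was only 0.03 log2 units above the next group at the least. In the cells of part 1 Slc38a6 was highest in other myeloid cells.

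Neurons as a whole were marked by 1 of 75 carriers, 1.33%, beside 1.09% of all genes. It was the proline carrier Slc6a7, at 27.4 CPM in KO-CFC, 47.2 in WT-CFC and 56.4 in WT-naive, and it lost the mark under 3 of 10 alternatives, among them when doublets were kept. Of the 9 neuronal carriers of the textbook list, 6 were highest in neurons in every library, Slc6a15 by only 0.04 log2 units at the least. Slc4a10 had 293, 285 and 253.5 CPM, and Slc12a5, which extrudes chloride and so sets the sign of GABA responses, had 197, 164 and 114 CPM. The vesicular amino acid carrier Slc6a17 had 117, 139 and 126 CPM. Slc38a1, which supplies glutamine, was instead highest in progenitors and neuroblasts, at 147, 195 and 133 CPM, against 70.9, 68.1 and 54.2 CPM in neurons. Slc9a5 was also highest in progenitors and neuroblasts. Slc30a3 was highest in microglia or in neurons, depending on the library, with a lowest value in neurons of -0.21 log2 units against the next group.

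Among the neuron classes, 5 of 69 carriers marked 1 class over the other 3 in every library, 7.25%, beside 7.32% of all 15220 genes, a share near that of all genes. By class, 2.16% of all genes marked granule neurons, 4.33% GABAergic interneurons, 2.25% mossy cells and 0.541% CA3 or CA2 neurons. The last were marked by 0 of the 28 carriers with enough counts there. Granule neurons were marked by Slc4a4, at 334.5 CPM (321 to 348) in KO-CFC, 596 (579 to 613) for WT-CFC and 622 (602 to 642) for WT-naive, while no other neuron class exceeded 48.4 CPM. That gap was at least 3.33 log2 units, and the level stayed below that in astrocytes of the same library. Slc30a3, which fills synaptic vesicles with zinc at mossy fibre terminals, also marked granule neurons, at 100.9, 95.6 and 88.9 CPM, and the next class reached at most 33.1 CPM. The vitamin carrier Slc5a6 marked GABAergic interneurons, at 14.8, 11.99 and 9.27 CPM, a mark lost under 2 of 10 alternatives (lowest 0.24). Mossy cells were marked by the sodium-proton exchanger Slc9a3 at 10.6, 10.2 and 11.4 CPM, a mark that was lost when doublets were kept and without the clusters mostly of 1 library. Slc12a5, a member of the GABAergic list, was highest in granule neurons, at 207, 228 and 179 CPM against 201, 191 and 133 CPM in interneurons. The proline carrier Slc6a7 was highest in CA3 or CA2 neurons and mossy cells, with 77.1 CPM in WT-CFC mossy cells and 9.38 CPM in WT-CFC granule neurons.

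The second question was whether carriers differed between libraries within a cell type. CPM were compared as log2 ratios with 0.5 counts added, for carriers with at least 100 counts over both libraries, and a difference was counted past 1.5-fold. Part 1 set CFC-14d against Random-14d, that is shocks paired with a context against random shocks. In endothelium 1 of 33 carriers passed, beside 2.43% of all genes, in microglia 1 of 60, beside 1.49%, in astrocytes 3 of 23, beside 2.69%, and in mural cells 3 of 28, beside 4.23%. No carrier passed among 10 in lymphocytes, 16 in oligodendrocytes and 15 in other myeloid cells, where 2.84%, 2.97% and 3.68% of all genes did. In erythroid cells 1 of 12 passed, beside 8.75%, and it was Slc4a2 (0.71). The share of carriers was above that of all genes in astrocytes and in mural cells, on 3 carriers each, and in the other groups named here at most 1 carrier passed.

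The few that passed were mostly low. In astrocytes Slc4a10 had 43.4 CPM in CFC-14d and 24.2 in Random-14d (log2 ratio 0.83, 0.27 to 1.44), and the citrate carrier Slc13a5 (-0.70) and Slc38a1 (-0.59) were lower in CFC-14d. In mural cells Slc6a17 and Slc4a3 were higher (0.80 each) and Slc9a9 lower (-0.60). Markers of smooth muscle moved with this result: they summed to 10410 CPM in mural cells of CFC-14d and 4540 in Random-14d, and Slc4a3 is the smooth muscle carrier named above. Their part in the result was not tested. In endothelium Slc12a9 was lower in CFC-14d (-0.68), and in microglia Slc6a11 was (-0.59), at 3.50 and 5.28 CPM. The ratios of Slc6a17 and Slc4a3 in mural cells stayed past 1.5-fold under every alternative setting, with lowest values of 0.66 and 0.62. Each of the others was under 1.5-fold in at least 1, for example Slc13a5 at -0.23, Slc9a9 at -0.31 and Slc12a9 at -0.36.

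In progenitors and neuroblasts 5 of 16 carriers passed, beside 6.51% of all genes. Slc4a10 had 45.2 CPM in CFC-14d and 19.8 in Random-14d (1.17, 0.57 to 1.84), Slc22a17 had 275 and 126.5 CPM (1.12, 0.88 to 1.37), and Slc4a2 (1.15) and Slc12a2 (0.96) were higher too. Of the 4 carriers higher in CFC-14d, Slc22a17 and Slc4a2 mark choroid plexus and Slc4a10 was highest there. Slc12a2 was lower in choroid plexus than in mural cells and oligodendrocytes. None of the 4 kept 1.5-fold under every alternative: with doublets kept Slc4a2 was at 0.15, Slc22a17 at 0.50 and Slc12a2 at 0.51, and Slc4a10 was at 0.22 with each barcode weighted equally. Choroid plexus RNA differed in the same direction in these cells, with 99520 CPM of Ttr in CFC-14d and 46680 in Random-14d, and erythroid markers summed to 20970 and 62280 CPM. In fibroblasts the 2 carriers that passed of 11, beside 7.24% of all genes, were also choroid plexus carriers, Slc22a17 at 215 and 117 CPM (0.88) and Slc4a10 (0.66), and choroid plexus markers there summed to 70340 and 55920 CPM. In fibroblasts too, Slc22a17 (0.495 at 1000 UMIs) and Slc4a10 (0.19 with equal weight) were under 1.5-fold in an alternative. The part of free RNA in these ratios was not tested.

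Choroid plexus gave the one large count. There 15 of 73 carriers were higher in CFC-14d and 0 lower, beside 13.8% of all genes higher and 0.231% lower, and the median log2 ratio was 0.24 over the carriers and 0.21 over all genes. Those with the largest ratios were carriers of other cells. Slc38a11 of mural cells had 2.65 CPM in CFC-14d and 0.86 in Random-14d (1.61, 1.15 to 2.12), Slc6a6 of endothelium had 14.2 and 5.22 CPM (1.44), and Slc30a10 (1.56), Slc6a13 (1.46) and Slc7a7 (1.39) followed. Markers of other cell types were higher there as well: microglial markers summed to 1502 CPM in CFC-14d and 639 in Random-14d, endothelial markers to 180 and 87.2 CPM, pericyte markers to 128 and 62.0 CPM and oligodendrocyte markers to 264 and 91.7 CPM. The carriers that mark choroid plexus differed little, Slc22a17 by 0.08, and Slc4a2 and Slc4a5 by 0.10 each on the log2 scale.

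Of these choroid plexus cells, 5464 in CFC-14d but 283 in Random-14d lay in a single cluster. Leaving that cluster out kept 5003 cells for CFC-14d and 4946 for Random-14d, and 1 of 73 carriers passed 1.5-fold, beside 1.534% of all genes. The median log2 ratio was then 0.13 over the carriers and 0.10 over all genes. The one that passed was the carnitine carrier Slc22a21, at 1.31 and 0.663 CPM (0.97, 0.38 to 1.61). The other 14 did not keep a higher level past 1.5-fold without that cluster, and 5 changed sign: Slc6a6 (-0.55), Slc7a11 (-0.47), Slc9a9 (-0.28), Slc4a4 (-0.25) and Slc38a11 (-0.18).

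**Figure D3:**
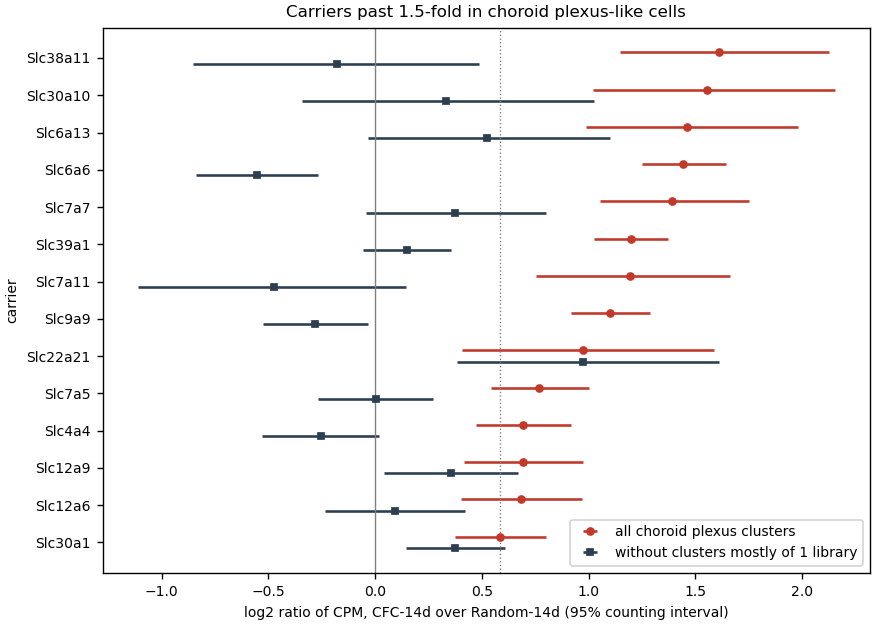
Carriers past 1.5-fold in choroid plexus cells, 14 of the 15 drawn. Points are log2 ratios of CPM, CFC-14d over Random-14d, circles with all clusters and squares without the cluster mostly of CFC-14d, bars are 95% counting intervals and the dotted line is 1.5-fold. Without the cluster only Slc22a21, at 0.97, stays to the right of the dotted line.

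In part 2, WT-CFC was set against WT-naive, conditioned against untrained mice of the same genotype. Counts of carriers past 1.5-fold were 4 of 40 in astrocytes, beside 9.21% of all genes, 1 of 7 in microglia, beside 8.54%, 7 of 76 in neurons, beside 5.39%, 3 of 19 in oligodendrocyte precursors, beside 7.08%, 4 of 17 in oligodendrocytes, beside 14.7%, and 2 of 14 in progenitors and neuroblasts, beside 7.91%. Each of these counts was at most 7 carriers. Among neuron classes it was 3 of 54 in granule neurons, beside 3.39%, 3 of 60 in mossy cells, beside 5.32%, 3 of 57 in GABAergic interneurons, beside 5.39%, and 5 of 70 in CA3 or CA2 neurons, beside 4.44%. Slc38a2 was lower in WT-CFC in all 6 groups. Slc38a9 and Slc39a10 also had enough counts in all 6 and went both ways, lower in 3 and in 4 of them. The share of all genes lower in all 6 groups was not counted.

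The gap of Slc38a2 was widest in astrocytes, where WT-CFC had 48.2 CPM (interval 39.6 to 58.1) and WT-naive 205 CPM (interval 184 to 228), a log2 ratio of -2.09 (-2.42 to -1.78). In neurons it had 92.3 CPM in WT-CFC and 144.9 in WT-naive (-0.65, -0.71 to -0.59), in oligodendrocyte precursors 124 and 196 CPM (-0.66) and in progenitors and neuroblasts 127 and 205 CPM (-0.68). The ratios in precursors and in progenitors and neuroblasts were under 1.5-fold in 2 of 12 alternatives each, at -0.50 and -0.44 at the least. Oligodendrocytes, with 844 and 1219 CPM (-0.53), and microglia, with 164 and 232 CPM (-0.50), were lower by less than 1.5-fold. Among neuron classes the ratio was -0.76 in granule neurons, -0.72 in GABAergic interneurons, -0.65 in CA3 or CA2 neurons and -0.56 in mossy cells. The library labelled KO-CFC was not at the WT-CFC level: it had 96.3 CPM in astrocytes (79.3 to 115.9) and 137 CPM in neurons, between WT-CFC and WT-naive in both, but 597 CPM in oligodendrocytes, below both. In the cells of part 1, Slc38a2 was past 1.5-fold in 0 of 11 groups, with the largest difference in astrocytes at 31.4 CPM in CFC-14d and 47.1 CPM in Random-14d (-0.58).

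**Figure D4:**
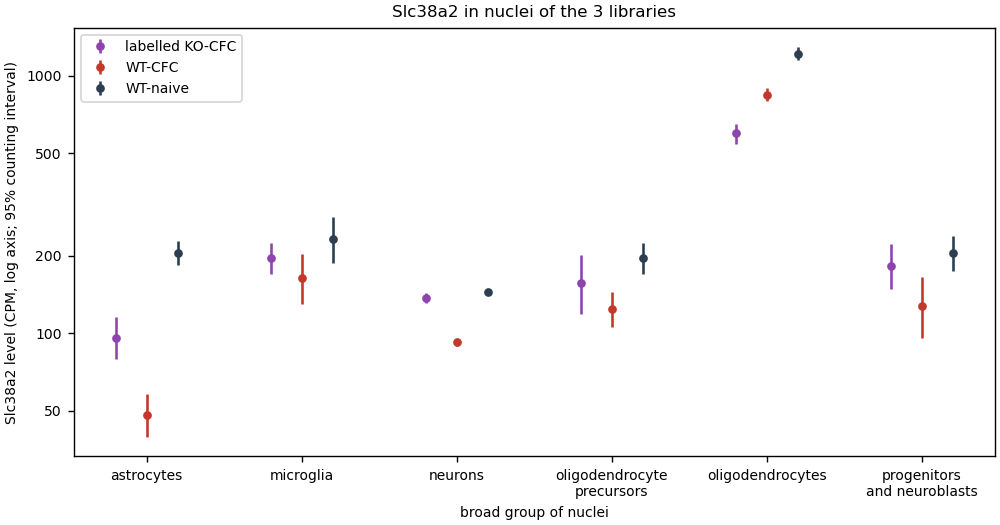
Slc38a2, a carrier of neutral amino acids, in the broad groups of nuclei. Points are CPM in KO-CFC, WT-CFC and WT-naive with exact 95% Poisson intervals on a logarithmic axis. WT-CFC is below WT-naive in all 6 groups, most in astrocytes at 48.2 against 205 CPM.

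Astrocyte nuclei fell into 2 clusters, and the libraries used them unequally. The cluster with more RNA of astrocyte markers held 265 nuclei of KO-CFC, 745 of WT-CFC and 594 of WT-naive, and the other 288, 151 and 266. Slc38a2 had 51.7 CPM in KO-CFC, 36.6 in WT-CFC and 176 in WT-naive in the first, and 124, 75.0 and 254 CPM in the second, so WT-CFC was lowest and WT-naive highest in each. Another carrier of an osmolyte, the inositol carrier Slc5a3, was lower in WT-CFC than in WT-naive both in astrocytes, at 19.4 and 41.7 CPM (-1.09, -1.68 to -0.54), and in oligodendrocytes, at 53.1 and 105 CPM (-0.98, -1.45 to -0.53). In neurons, the other group with enough counts, Slc5a3 stood the other way, at 33.0 and 24.9 CPM (0.41, 0.29 to 0.52). The taurine carrier Slc6a6 passed 1.5-fold in 0 of the 4 groups with enough counts, with log2 ratios from -0.37 to 0.12. Glial nuclei of WT-naive held 34.4 to 78.9 CPM of Ttr and those of KO-CFC and WT-CFC at most 0.442 CPM, so choroid plexus RNA in these nuclei differed between libraries. Its part in these ratios was not tested.

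The other carriers past 1.5-fold in neurons of WT-CFC against WT-naive were low. The zinc exporter Slc30a1 had 7.19 CPM in WT-CFC neurons and 4.21 in WT-naive (0.77, 0.51 to 1.04), and passed in mossy cells (0.91) and in CA3 or CA2 neurons (0.63). Slc5a12 (-0.77), Slc7a15 (-0.76), Slc6a16 (-0.64) and Slc4a9 (-0.59) were lower in WT-CFC neurons and Slc5a5 was higher (0.62), all under 7 CPM. Slc30a1 in neurons and mossy cells and Slc5a12 and Slc7a15 in neurons kept 1.5-fold under every alternative, while Slc30a1 in CA3 or CA2 neurons (0.41 with doublets kept), Slc6a16 (-0.26 at the least), Slc4a9 (-0.52) and Slc5a5 (0.50) did not. In oligodendrocytes Slc4a10 (0.77), Slc4a2 (0.72) and Slc30a9 (0.66) were higher, and in oligodendrocyte precursors Slc4a4 (0.86) and Slc7a14 (0.75) were. All 5 were under 1.5-fold in an alternative: with doublets kept Slc4a10 was at 0.36, Slc4a2 at 0.45, Slc30a9 at 0.48 and Slc7a14 at 0.03, and Slc4a4 was at 0.23 with the barcode limit at 1000 UMIs.

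The library labelled KO-CFC was set against WT-CFC to ask what differs with the named deletion after the same training, and against WT-naive. These comparisons share libraries with each other and with the one above. Many genes differed in this library: past 1.5-fold against WT-CFC were 24.4% of all genes in astrocytes, 33.5% in microglia, 30.1% in neurons, 28% in oligodendrocyte precursors, 28.8% in oligodendrocytes and 22.6% in progenitors and neuroblasts. Carriers passed in 12 of 36, 6 of 19, 17 of 73, 4 of 14, 6 of 20 and 2 of 11, shares on either side of those of all genes. The median log2 ratio of all genes was 0.14 in neurons, 0.13 in mossy cells, -0.18 in oligodendrocyte precursors and -0.19 in oligodendrocytes against WT-CFC. It was -0.07 in astrocytes, -0.07 in microglia and -0.11 in progenitors and neuroblasts. Apart from the alternative with size factors, ratios and counts of groups above or below 0 are given without a shift by this median. Against WT-naive it was 9 of 31 carriers in astrocytes, beside 20.2% of all genes, 10 of 17 in microglia, beside 34.1%, 23 of 73 in neurons, beside 36.1%, 2 of 10 in oligodendrocyte precursors, beside 19.4%, 6 of 16 in oligodendrocytes, beside 27.5%, and 3 of 15 in progenitors and neuroblasts, beside 21.2%.

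In astrocytes the organic cation carrier Slc22a4 had 77.4 CPM in KO-CFC, 27.0 in WT-CFC and 29.3 in WT-naive (1.52, 1.04 to 2.02, against WT-CFC). Slc5a3 (1.45), Slc38a2 (0.999), Slc38a1 (0.96) and Slc6a6 (0.94) were higher against WT-CFC too. Slc7a10 had 144 and 241 CPM in KO-CFC and WT-CFC (-0.75), Slc6a11 143 and 233 CPM (-0.71) and Slc4a4 676 and 1081 CPM (-0.68), all of them carriers that mark astrocytes. The ratio of Slc38a1 was 0.53 with the barcode limit at 1000 UMIs. Within the astrocyte clusters some of these were closer, among them Slc7a10, Slc4a4 and Slc6a11 in both. In KO-CFC and WT-CFC, Slc4a4 had 952 and 1272 CPM in the first cluster and 505 and 635 CPM in the second. Slc6a11 had 216 and 289 CPM in the first and 97.4 and 104 CPM in the second. Slc7a10 had 249.7, 311 and 289 CPM in KO-CFC, WT-CFC and WT-naive in the first cluster and 77.9, 78.0 and 67.0 CPM in the second. Slc6a6 was closer in the second cluster alone, at 96.0 and 92.7 CPM in KO-CFC and WT-CFC. In the first it had 24.8 and 11.4 CPM, on 11 and 18 counts, and its intervals overlapped in both clusters. Slc38a1 had 51.7 and 41.7 CPM in the first, again overlapping, while in the second its intervals were apart, at 127.1 to 186 CPM in KO-CFC and 77.67 to 126.8 CPM in WT-CFC. Slc5a3 had 42.8 and 15.8 CPM in the first and 59.8 and 27.9 CPM in the second, higher in KO-CFC in both. Slc22a4 was highest in KO-CFC in both clusters, at 45.0, 27.8 and 24.5 CPM in the first and 97.4, 25.0 and 37.4 CPM in the second. Astrocyte markers over all astrocyte nuclei summed to 6874 CPM in KO-CFC, 10060 in WT-CFC and 9391 in WT-naive.

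The chloride loader Slc12a2 was lower in KO-CFC in several cell types. In oligodendrocytes it had 284 CPM in KO-CFC, 601 in WT-CFC and 439.7 in WT-naive (-1.08, -1.30 to -0.87, against WT-CFC). In mossy cells it had 52.7 CPM (42.9 to 64.1) in KO-CFC, 83.4 (77.2 to 90.1) for WT-CFC and 122 for WT-naive, a log2 ratio of -0.66 against WT-CFC and -1.21 against WT-naive. In GABAergic interneurons it had 32.6, 57.0 and 55.2 CPM (-0.80 against WT-CFC) and in granule neurons the ratio against WT-CFC was -0.62, or -0.52 with doublets kept. Of the 5 broad groups with enough counts, all 5 were below 0 against WT-CFC and all 5 against WT-naive, and 3 and 4 of them passed 1.5-fold. The share of all genes that run the same way across groups was not counted, here or for the carriers that follow. The zinc carrier Slc30a9 was also below 0 in 5 of 5 groups against WT-CFC, from -0.77 to -0.10, with 2 of them past 1.5-fold. Slc39a10 was below 0 in 5 of 6 against WT-naive, with 2 past it. The chloride extruder Slc12a5 was above 0 in 4 of 5 broad groups against WT-CFC and in 5 of 5 against WT-naive, with 185.6 and 99.4 CPM in mossy cells of KO-CFC and WT-naive (0.90). In oligodendrocytes the sulfate carrier Slc13a1, with 55.1 and 120.5 CPM (-1.12 against WT-CFC), was lower as well.

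Other carriers were higher in KO-CFC across cell types. Slc22a17 was above 0 in all 6 broad groups against WT-CFC and against WT-naive, past 1.5-fold in 5 and 4 of them. The share of all genes above 0 in all 6 was not counted. In microglia Slc22a17 had 174 CPM in KO-CFC, 79.0 in WT-CFC and 108 in WT-naive. Slc7a4, a member related to cationic amino acid carriers, had 55.8 CPM (50.4 to 61.7) in KO-CFC granule neurons, 21.8 (18.7 to 25.3) for WT-CFC and 20.7 (17.2 to 24.7) for WT-naive, a ratio of 1.36 against WT-CFC. The ratio of Slc7a4 against WT-CFC was 0.91 in mossy cells and 0.63 in GABAergic interneurons, the second under 1.5-fold (0.49) with scaling by size factors. The zinc importer Slc39a1 had 17.0, 7.88 and 12.4 CPM in granule neurons, 16.9, 9.30 and 6.07 CPM in mossy cells and 16.3, 8.35 and 7.56 CPM in interneurons, with ratios of 1.10, 0.87 and 0.97 against WT-CFC. KO-CFC was the highest library for Slc7a4 and Slc39a1 in each of these 3 classes. In all, 7 of 57 carriers passed against WT-CFC in granule neurons, beside 21.5% of all genes, 8 of 53 in mossy cells, beside 25.8%, and 6 of 55 in interneurons, beside 17.2%. Against WT-naive the counts were 4 of 51, beside 19%, 9 of 51, beside 28.3%, and 9 of 53, beside 20.3%.

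**Figure D5:**
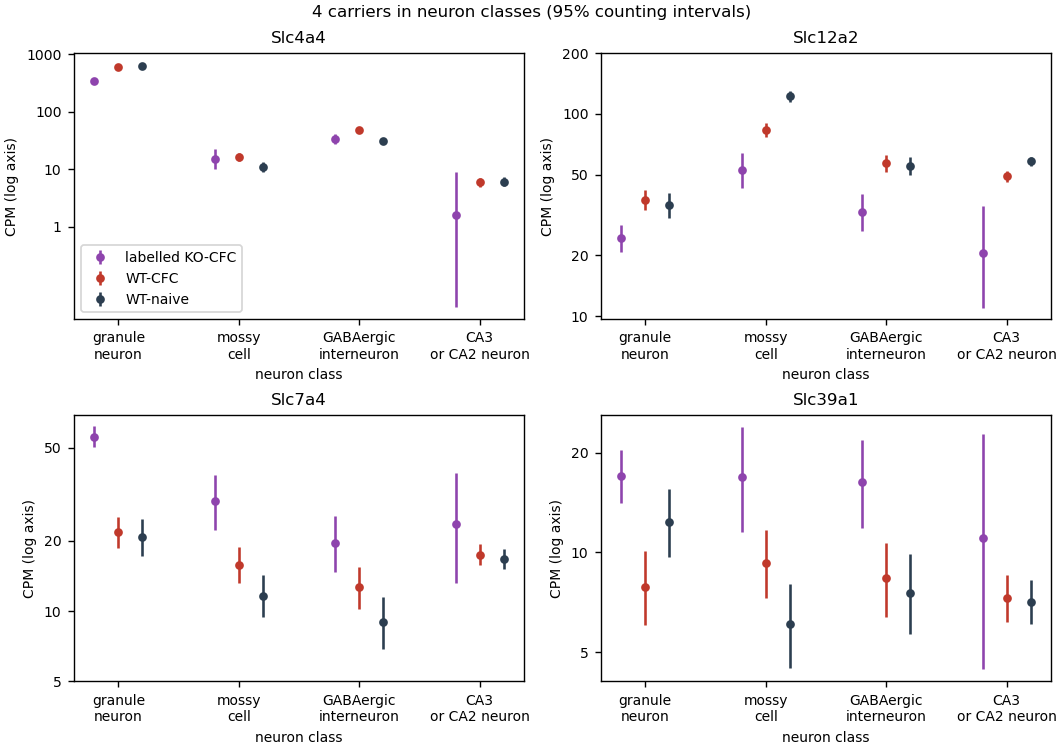
Slc4a4, Slc12a2, Slc7a4 and Slc39a1 in the neuron classes of part 2. Points are CPM in KO-CFC, WT-CFC and WT-naive on a logarithmic axis and bars are exact 95% counting intervals. In granule neurons KO-CFC is the lowest library for Slc4a4 at 334.5 CPM and for Slc12a2 at 24.3 CPM, and the highest for Slc7a4 at 55.8 CPM and Slc39a1 at 17.0 CPM.

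Granule neurons of KO-CFC formed a cluster of their own, with 1648 nuclei of KO-CFC, 6 of WT-CFC and 21 of WT-naive, while the other granule cluster held 69, 1367 and 1164. Slc4a4 in granule neurons had 334.5, 596 and 622 CPM over both clusters (-0.83 against WT-CFC, -0.91 to -0.76), and 402 (326 to 491), 598 and 623 CPM in the second cluster alone. Slc7a4 had 50.2 (26.0 to 87.8), 21.9 and 19.9 CPM there. The direction was the same in the few KO-CFC granule nuclei that clustered with those of the other libraries.

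Over all neurons, whose makeup by class differed between libraries, several ratios were not those of the classes. Slc4a4 was higher in KO-CFC neurons than in WT-CFC neurons (199.9 and 122 CPM, 0.71) although it was lower in granule neurons, the class that holds it. Without the cluster of KO-CFC granule nuclei it had 39.4 CPM in KO-CFC neurons, 122 in WT-CFC and 89.7 in WT-naive. The sodium-proton exchanger Slc9a2 had the lowest ratio, with 9.97 CPM in KO-CFC neurons and 26.7 in WT-CFC (-1.42), but 35.9 and 36.8 CPM in mossy cells and 42.6 and 40.8 CPM in CA3 or CA2 neurons. Slc6a7 had 27.4 and 47.2 CPM over neurons (-0.78), but 80.2 and 77.1 CPM in mossy cells. Slc39a6, a zinc importer, had 62.5 and 25.3 CPM over neurons (1.31), and 25.3 and 14.8 CPM in mossy cells (0.79). It was at 0.58 over neurons without the clusters mostly of 1 library and at 0.42 in mossy cells with the barcode limit at 1000 UMIs. Slc9a2 was at -0.11 over neurons when each library was clustered alone.

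In microglia Slc7a8 had 155 CPM in KO-CFC, 298 in WT-CFC and 318 in WT-naive (-0.95, -1.27 to -0.61, against WT-CFC), and the zinc importer Slc39a10 was lower too (-0.71). Slc38a6 (0.995) and Slc6a6 (0.83) were higher. With the barcode limit at 1000 UMIs Slc38a6 was at 0.41 and Slc6a6 at 0.35, and with doublets kept Slc7a8 was at -0.53, all under 1.5-fold. Microglial markers summed to 5155, 7889 and 6658 CPM in these nuclei, B cell markers to 565, 52.7 and 66.9 CPM and oligodendrocyte markers to 557, 255 and 239 CPM, and their part in these ratios was not tested. In oligodendrocytes Slc4a4 had 103 CPM in KO-CFC and 26.2 in WT-CFC (1.96), beside astrocyte markers that summed to 515 and 299 CPM, and the part of astrocyte RNA was not tested. That ratio was -0.04 when doublets were kept.

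Genes that work with these carriers were listed as well: the heavy chains that carry Slc7 members to the membrane, the subunits of the sodium pump that powers them, carbonic anhydrases that feed bicarbonate carriers, the WNK, STK39 and OXSR1 kinases that switch Slc12 carriers, and metallothioneins, which bind zinc. Of the 22 genes, 21 had enough counts in part 1 and 6 marked a group there, beside 12% of all genes, and 22 had enough in part 2, where 7 marked one, beside 8.18%. The sodium pump subunit Atp1b1 and carbonic anhydrase Car12 marked choroid plexus, beside the bicarbonate carriers described above, and Car2 marked oligodendrocytes in both parts. The metallothioneins Mt1 and Mt2 marked astrocytes in both parts, the cells also marked by the zinc importer Slc39a12.

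The metallothioneins Mt1 and Mt3 were higher in KO-CFC in every broad group of nuclei, and Mt2 in the 2 groups where it had enough counts. Mt1 had 1594 CPM in KO-CFC astrocytes, 515 in WT-CFC and 459.9 in WT-naive (1.63, 1.52 to 1.74, against WT-CFC), and 111, 27.0 and 24.2 CPM in neurons. Against WT-CFC its log2 ratio lay between 1.22 and 2.04 over 6 of 6 groups, and that of Mt3, the metallothionein of neurons and astrocytes, between 0.60 and 1.48 over 6 of 6. Against WT-naive the ranges were 1.62 to 2.23 for Mt1 and 0.86 to 1.68 for Mt3. Haemoglobin RNA was highest in KO-CFC in the same 6 groups, for example 0.0206% of microglial UMIs, against 0.00446% in WT-CFC and 0.00454% in WT-naive. KO-CFC also held 2 unnamed clusters of low depth, with 890 and 157 of its nuclei, and Mt3 and Slc39a1 were among the leading genes of the second. The largest unnamed cluster, also of low depth and led by RNA of broken cells, lay mostly in the other libraries. It held 14 nuclei of KO-CFC, 4579 of WT-CFC and 1489 of WT-naive. The part of free RNA or RNA quality in these ratios was not tested. RNA of Mtf1, the factor that switches metallothionein genes on in response to zinc, had enough counts in 2 groups. Its log2 ratios there were -0.13 and 0.036 against WT-CFC, and -0.39 and 0.17 against WT-naive. Slc30a1, another gene known to respond to zinc, had 5.96 CPM in KO-CFC neurons, 7.19 in WT-CFC and 4.21 in WT-naive. Its log2 ratio was -0.26 (-0.66 to 0.10) against WT-CFC and 0.51 against WT-naive. A part of zinc in the metallothionein levels was not tested. Atp1b1 was also past 1.5-fold in KO-CFC in 6 of 6 groups against either library. The share of all genes past 1.5-fold in all 6 groups was not counted. Of the listed partner genes, 7 of 21 were higher and 0 lower against WT-CFC in neurons, beside 30.1% of all genes past 1.5-fold either way. In astrocytes 5 of 17 were higher and 2 lower, beside 24.4%. In WT-CFC against WT-naive neither Mt1 nor Mt3 passed in any of 6 groups.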

How the data were processed

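Single cells (part 1) and nuclei (part 2) of mouse dentate gyrus were counted with droplet kits of the Chromium 3′ chemistry, per the labels' protocols. The values are UMI counts per gene and barcode as deposited, whose headers name Cell Ranger 8.0.1; Seurat 5.4.0 and the build GRCm39 (mm39) are named in the submitters' processing notes without a role, and the sources used here do not state the annotation.

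Barcodes needed at least 500 UMIs and 300 genes, with mitochondrial UMIs up to 20% (cells) or 5% (nuclei). Barcodes with high simulated-doublet scores were then removed, at an automatic threshold in KO-CFC (11.32%) and at a fixed target of 8% in the others, where the automatic threshold marked under 0.5%; this kept 28636 barcodes in CFC-14d and 26484 in Random-14d, and 7430 in KO-CFC, 12046 in WT-CFC and 9929 in WT-naive. Each part was clustered on its own (2000 variable genes without the carriers, 30 components, 15 neighbours, Leiden resolution 1). Clusters were named from at least 3 markers, and those left unnamed held 3.81% of kept barcodes in CFC-14d, 5.32% in Random-14d, 37.6% in KO-CFC, 41.3% in WT-CFC and 22.6% in WT-naive.

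Counts were summed per library and group and scaled to CPM, with exact Poisson intervals, and ratios have exact conditional binomial intervals, both at 95%. Marks needed groups of at least 50 barcodes, with groups under 3 counts set to 3 counts; ratios needed groups of at least 100 barcodes. With 1 library a group no p-value was computed. Levels of different genes are not compared, since 3′ counts are not scaled to length.

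The text names, per group, up to 10 marking carriers and the 3 of highest level, up to 5 highest and 5 lowest ratios past 1.5-fold whose interval excludes 0, the carriers of textbook lists, and for 1 carrier per family those most alike; further genes were named after their values were seen. Members, lists and partner genes were chosen with earlier results of these data known. The ratio and mark calculations were tested on simulated data. 1 carrier is counted but not reported here. Alternatives were other barcode, doublet, mitochondrial and count limits, resolution, scaling (DESeq2 size factors, or totals without haemoglobin and mitochondrial genes), equal weight per barcode, other folds and clustering per library; leaving out clusters mostly of 1 library, or platelets and neutrophils, was added after seeing the data. Python 3.11.15, numpy 2.4.6, scipy 1.17.1, pandas 2.3.3, scikit-learn 1.9.0, igraph 0.11.9 and matplotlib 3.10.9 were used.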

Additional observations from a re-analysis of the deposited data

Results flagged for a closer look

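Some carriers were past 1.5-fold in opposite directions in different cell types under the same comparison. None of these differences between cell types was tested, since each group has 1 library. In CFC-14d against Random-14d, Slc12a9 had a log2 ratio of 0.69 in choroid plexus and -0.68 in endothelium, and Slc9a9 had 1.10 in choroid plexus and -0.60 in mural cells. Without the cluster mostly of CFC-14d, Slc12a9 in choroid plexus stood at 0.35, and Slc9a9 at -0.28 (-0.53 to -0.03), the same direction as in mural cells. Under other alternatives Slc12a9 in endothelium was at -0.36 and Slc9a9 in mural cells at -0.31 at the least. In KO-CFC against WT-CFC, Slc22a4 had 1.52 in astrocytes and -0.59 in neurons. Slc4a4 had -0.68 in astrocytes, -1.09 in microglia and -0.82 in oligodendrocyte precursors, but 0.71 in neurons and 1.96 in oligodendrocytes, and the values in microglia and oligodendrocytes changed sign under other barcode or doublet limits. Without the cluster of KO-CFC granule nuclei the neuron value changed sign too, to 39.4 CPM in KO-CFC and 122 in WT-CFC, and in granule neurons the ratio was -0.83. In KO-CFC against WT-naive, Slc6a11 had -0.64 in astrocytes and 0.60 in neurons.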

How the results depend on the processing

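No paired analysis was possible because each group has 1 library, and no replicate could be left out. Of 45 carriers that marked a group, 28 stayed past 2-fold under every alternative other than the 4-fold rule. At 4-fold, 12 carriers marked a group in part 1 and 5 in part 2 (26 and 14 at 2-fold), and 2 marked a neuron class (5 at 2-fold). Neuron class marks numbered 3 with doublets kept and 2 without the clusters mostly of 1 library, where Slc9a3 in mossy cells stood at -0.25; Slc6a7 in neurons stood at -0.12 with doublets kept. Carriers past the fold in CFC-14d against Random-14d, summed over groups, were 31, and 55 with each barcode weighted equally, 444 with no count minimum, 12 at 2-fold and 17 without the clusters mostly of 1 library. For WT-CFC against WT-naive they were 21, and 232 with no minimum and 2 at 2-fold. For KO-CFC against WT-CFC they were 47, and 302 and 15, and for KO-CFC against WT-naive 53, and 288 and 23.

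Without the clusters mostly of 1 library the ratio changed sign for Slc38a11 (-0.18) and Slc6a6 (-0.55) in choroid plexus, for Slc6a7 (0.0070) and Slc30a3 (-0.74) in neurons of KO-CFC against WT-CFC, and for Slc30a3 (-0.31) and Slc4a4 (-1.18) in neurons of KO-CFC against WT-naive. At 1000 UMIs it changed for Slc4a4 in microglia of KO-CFC against WT-CFC (0.39) and for Slc30a3 in astrocytes of WT-CFC against WT-naive (-0.17), and with doublets kept for Slc4a4 in oligodendrocytes of KO-CFC against WT-CFC (-0.036). Slc7a14 in astrocytes of WT-CFC against WT-naive changed at 1000 UMIs (-0.81), with doublets kept (-0.10), at the stricter mitochondrial limit (-0.10), at resolution 2 (-0.17), with carriers kept for clustering (-0.21) and with each library clustered alone (-0.038). The cause of these changes was not tested. Carriers outside this naming rule changed sign too: without the clusters mostly of 1 library Slc7a11 stood at -0.47, Slc9a9 at -0.28 and Slc4a4 at -0.25 in choroid plexus, and Slc4a4 in neurons had 39.4 CPM in KO-CFC and 122 in WT-CFC. Over the ratios named by the rule and their alternatives, 1882 log2 ratios stayed within their intervals, 132 moved and 15 changed sign. Of the 170 named ratios, 92 were under 1.5-fold under at least 1 alternative.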

Other observations

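In WT-naive, 20 nuclei of choroid plexus type were found, too few for the rules above, and none in KO-CFC or WT-CFC. They held 1844 CPM of Slc4a10 (1572 to 2150), 430.0 CPM of Slc12a2, 294 CPM of Slc4a5, 272 CPM of Slc22a17 and 238 CPM of Slc4a2. In the dissociated choroid plexus cells of part 1, Slc4a10 stood at 217 CPM in CFC-14d and 202 in Random-14d and Slc22a17 at 772.5 and 730.1 CPM. Nuclei and dissociated cells were prepared differently and never compared by a test.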
